A study of Saccharomyces cerevisiae and Kluyveromyces lactis with 95 samples.

Results

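The cyclins that pair with the Cdc28 kinase in budding yeast and the Sic1 inhibitor of that kinase were followed through PKA inhibition. The members were the 10 *S. cerevisiae* genes CLN1, CLN2, CLN3, CLB1, CLB2, CLB3, CLB4, CLB5, CLB6 and SIC1, taken by common name, out of 6600 genes in the count files of that species. In *K. lactis* they were the 6 genes, out of 5534, whose assigned *S. cerevisiae* ortholog is one of those 10. All 10 and all 6 passed the filter on low counts. The systematic names are YMR199W for CLN1, YPL256C for CLN2, YAL040C for CLN3, YGR108W for CLB1, YPR119W for CLB2, YDL155W for CLB3, YLR210W for CLB4, YPR120C for CLB5, YGR109C for CLB6 and YLR079W for SIC1. *K. lactis* did not go through the whole genome hybridization that gave *S. cerevisiae* its paired genes, and each of CLN1/CLN2, CLB5/CLB6, CLB3/CLB4 and CLB1/CLB2 is matched by a single gene there, written Kl_CLN1/CLN2 (KLLA0F06490g), Kl_CLB5/CLB6 (KLLA0D15565g), Kl_CLB3/CLB4 (KLLA0C16445g) and Kl_CLB1/CLB2 (KLLA0D15543g), next to Kl_CLN3 (KLLA0C13057g) and Kl_SIC1 (KLLA0D05797g).

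The study compared cells grown exponentially in YPD at 30 °C and treated for 50 min with 3 uM 1-NM-PP1, a bulky ATP analog (drug), or with DMSO. PKA-AS strains carry gatekeeper mutations in PKA, so that the drug blocks the kinase, and PKA-WT strains lack them. The *S. cerevisiae* strains are W303 MATa, and the PKA-AS ones also carry an NHP6A-IRFP nuclear marker that was not used. Each allele was combined with no deletion, with deletion of MSN2 and MSN4 (ΔMsn2/4), with deletion of RPH1 and GIS1 (ΔRph1/Gis1) or with deletion of all 4, and in *K. lactis* PKA-AS with deletion of the gene orthologous to MSN2 and MSN4 (ΔMsn2), of that orthologous to RPH1 and GIS1 (ΔRph1), or of both. *S. cerevisiae* gave 4 drug and 4 DMSO cultures for each of the 4 PKA-AS strains and 3 drug and 3 DMSO cultures for each of the 4 PKA-WT strains, 56 cultures in 16 groups. *K. lactis* gave 4 drug and 4 DMSO cultures for PKA-AS with no deletion, ΔMsn2 and ΔRph1, 3 drug and 3 DMSO cultures for the double deletion, and 3 drug and 2 DMSO cultures for PKA-WT with no deletion, 35 cultures in 10 groups. Each culture was divided into a drug and a DMSO portion, so portions with the same number form a pair.

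Cyclins are the regulatory subunits that time the cell cycle. Cln3 acts first in G1 and helps to free the transcription factors SBF (Swi4-Swi6) and MBF (Mbp1-Swi6) from the Whi5 inhibitor. SBF and MBF then switch on CLN1, CLN2, CLB5 and CLB6, and the Cln1 and Cln2 kinases mark Sic1 for destruction, which releases the Clb5 and Clb6 kinases to start DNA replication. Clb3 and Clb4 act in the assembly of the spindle, and Clb1 and Clb2 drive mitosis. Sic1 is made again at the end of mitosis and in early G1. PKA is active when glucose is plentiful and promotes growth and passage through G1, and it keeps the stress activators Msn2 and Msn4 out of the nucleus. Rph1 and Gis1 are zinc finger factors that share DNA sites with Msn2 and Msn4.

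The sequences upstream of the G1 and S phase cyclins and of SIC1 are shown because CLN1, CLN2 and CLB5 are the members whose drug effect passed a test of the difference between strains, CLB6 is the paralog of CLB5 and SIC1 is the member that rose. The R64 genome was searched over 700 bases before the ATG on both strands, for all 6005 protein-coding genes on its 16 chromosomes. CLN1 (chromosome XIII, 662644 to 664284, plus strand) has 2 matches to the SBF motif CNCGAAA and 1 to the MBF motif ACGCGT, and 1 to AGGGG outside the stretch shown. CLN2 (XVI, 64977 to 66614, minus strand) has 3 CNCGAAA matches. CLB6 (VII, 705359 to 706501, minus strand) has 2 ACGCGT matches. CLB5 (XVI, 773875 to 775182, minus strand) has none of the 6-base motif and 5 matches to its core ACGCG (4 within the stretch shown), a shorter motif that was added after the longer had given no match there. Each palindromic ACGCGT counts as 2 matches to the core. SIC1 (XII, 286820 to 287674, plus strand) has 1 match to CNCGAAA, 1 to ACGCG and 2 to AGGGG, the stress response element (STRE) to which Msn2 and Msn4 bind. Stretches of 200 bases follow, 5′ to 3′ on the coding strand, with the SBF and MBF motifs in capitals for CLN1, CLN2 and CLB6, the MBF core in capitals for CLB5, and the STREs in capitals for SIC1.
CLN1, chrXIII:662027-662226 (plus strand, bases -617 to -418 from the ATG): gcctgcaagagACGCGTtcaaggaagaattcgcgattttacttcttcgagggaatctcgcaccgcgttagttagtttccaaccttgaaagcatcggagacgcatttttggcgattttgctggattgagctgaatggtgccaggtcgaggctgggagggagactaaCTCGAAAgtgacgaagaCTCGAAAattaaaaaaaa
CLN2, chrXVI:67084-67283 (minus strand, -669 to -470): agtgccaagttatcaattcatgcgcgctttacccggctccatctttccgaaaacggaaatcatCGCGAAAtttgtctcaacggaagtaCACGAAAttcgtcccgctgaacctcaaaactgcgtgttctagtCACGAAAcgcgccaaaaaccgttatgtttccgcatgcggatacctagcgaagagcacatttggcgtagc
CLB6, chrVII:706789-706988 (minus strand, -487 to -288): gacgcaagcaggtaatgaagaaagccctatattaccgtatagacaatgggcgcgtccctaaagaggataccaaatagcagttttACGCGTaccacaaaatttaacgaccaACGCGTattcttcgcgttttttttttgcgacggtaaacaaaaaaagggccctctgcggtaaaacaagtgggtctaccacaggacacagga
CLB5, chrXVI:775454-775653 (minus strand, -471 to -272): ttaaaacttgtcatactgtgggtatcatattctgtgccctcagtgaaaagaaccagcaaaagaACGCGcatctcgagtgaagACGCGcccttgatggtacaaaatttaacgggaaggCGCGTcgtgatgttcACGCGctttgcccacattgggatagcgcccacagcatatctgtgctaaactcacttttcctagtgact
SIC1, chrXII:286374-286573 (plus strand, -446 to -247): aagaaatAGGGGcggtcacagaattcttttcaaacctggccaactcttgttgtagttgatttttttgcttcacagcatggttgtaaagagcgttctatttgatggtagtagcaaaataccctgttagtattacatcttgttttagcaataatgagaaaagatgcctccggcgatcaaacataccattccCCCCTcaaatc

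Such letters are common: over the 6005 genes, CNCGAAA was found upstream of 27.3%, ACGCGT of 6.99%, ACGCG of 30.1% and AGGGG of 44.5%. At least 3 CNCGAAA, as in CLN2, stood upstream of 0.550% of genes, at least 2 ACGCGT, as in CLB6, upstream of 0.716%, at least 5 ACGCG, as in CLB5, upstream of 0.316%, and at least 2 AGGGG, as in SIC1, upstream of 13.2%. CLB6 had more ACGCG matches than CLB5, 6 (at least as many upstream of 0.0999% of genes), and CLN1 had 3 (4.00%), palindromes counted as above. CLN3 (I, 65778 to 67520, minus strand) held none of the 7 motifs searched, which included ACCAGC (Swi5, in 20.2% of genes), GTAAACA (forkhead factors, in 13.6%) and TAGGGAT (post-diauxic shift element, in 4.21%). CLB4 (XII, 562008 to 563390, plus strand) had 2 CNCGAAA, 1 ACGCG, 1 ACCAGC and 1 GTAAACA, CLB1 (VII, 703636 to 705051, plus strand) had 1 CNCGAAA, 1 GTAAACA and 1 AGGGG, CLN2 also had 1 ACGCG, CLB5 1 ACCAGC and CLB6 1 GTAAACA, CLB3 (IV, 176773 to 178056, plus strand) had 1 TAGGGAT and CLB2 (XVI, 771653 to 773128, plus strand) had 1 AGGGG. A match describes these letters only.

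The depth of the *S. cerevisiae* libraries used was 188289 to 4715139 gene counts, with a median of 2062219, and that of the *K. lactis* libraries 815372 to 4117520, with a median of 2405976. The shallowest was the drug portion of PKA-AS ΔMsn2/4 culture 3. The MATa gene STE2 was at 108 to 475 CPM in every *S. cerevisiae* culture and the MATalpha gene STE3 at no more than 1.33 CPM, as a MATa strain should have. The *K. lactis* STE2 ortholog was at no more than 0.727 CPM. Of 2 other MATa genes, the STE6 ortholog was at 23.4 to 153 CPM and the BAR1 ortholog at 0 to 24.5 CPM. The *K. lactis* STE3 ortholog was at no more than 6.90 CPM. These genes do not settle the mating type of the *K. lactis* strains, which the labels used here do not state. RPH1 had 0 counts in every *S. cerevisiae* culture, and GIS1 had as few as 0 in cultures that keep it. The paper describes the deletions of MSN2, MSN4 and their ortholog as taking the coding sequence and part of the promoter. The 3′ tag of a gene deleted so can lie beyond the stop codon. The counts of the 4 deleted factors therefore do not check the labels. Cultures numbered 1 stood apart for some of the members: the culture numbered 1 was the highest of its group for CLB1 and CLN2 in 15 of the 16 *S. cerevisiae* groups, for CLB6 in 13, for CLN3 in 12 and for Kl_CLB5/CLB6 in 9 of the 10 *K. lactis* groups. The median log2 difference between culture 1 and the rest of its group was 1.68 for CLB1, 0.74 for CLN2 and 1.08 for Kl_CLB5/CLB6. The labels give no cause for this. Results are therefore also given without these cultures where a call changed.

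In *S. cerevisiae* PKA-AS cells with no deletion, 5 of the 10 genes fell and 1 rose with the drug at an adjusted p under 0.01 (edgeR quasi-likelihood test over 5779 genes). The genes that fell were the G1 cyclins CLN1 and CLN2, the S phase cyclin CLB5, and CLB3 and CLB4, and the gene that rose was SIC1. This fit did not pair the drug and DMSO portions of a culture. With the culture pairs as a block, CLN3 (adjusted p = 0.00689) and CLB1 (adjusted p = 0.00201) also passed, both lower, and CLB4 did not (adjusted p = 0.0122). Of all genes tested, 21.2% fell and 20.7% rose by the same rule, so a change of this kind was common. The median log2 fold change (LFC, drug over DMSO) over the 10 genes was -1.34, against 0.00 over all genes, and none of the 10 passed the LFC of 2 that the study also asked for. The values of 9 of the 10 did not overlap between drug and DMSO cultures, CLN3 being the exception, beside 25.4% of all genes that were lower and 26.0% that were higher without overlap. In bulk samples, fewer cells at a stage of the cell cycle and less RNA per cell cannot be told apart.

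**Figure D1:**
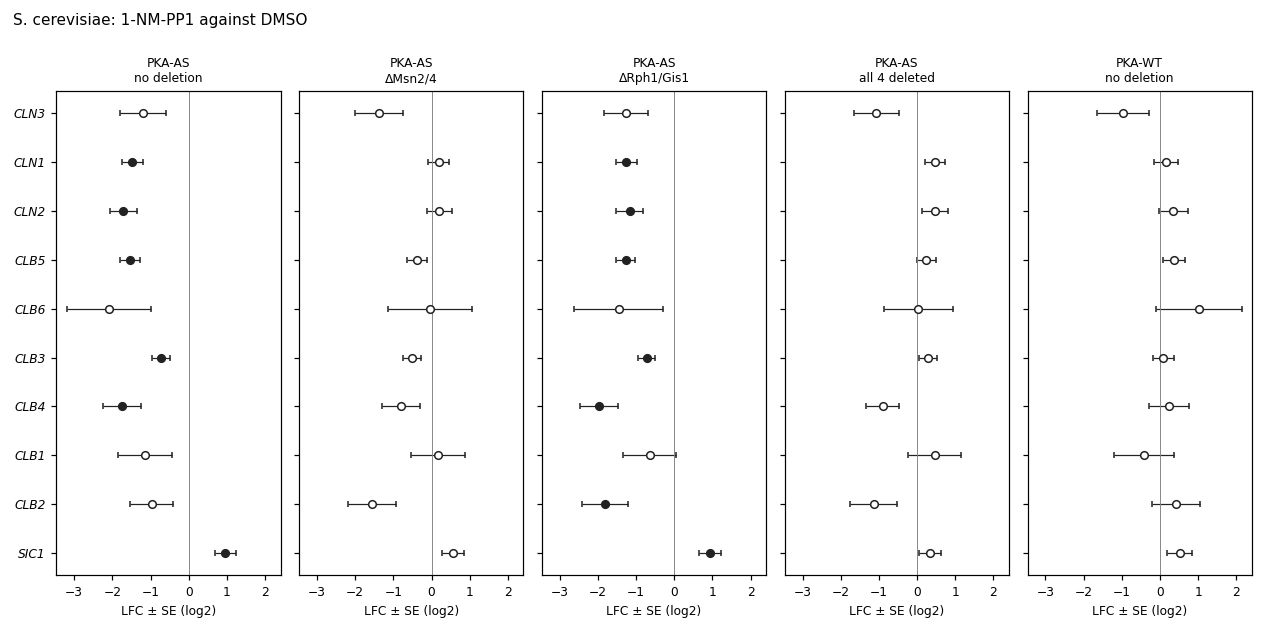
Log2 fold change of drug over DMSO (x axis, log2 units) for each of the 10 genes (rows) in the 4 *S. cerevisiae* PKA-AS strains and in PKA-WT with no deletion (panels). Points are fitted values, bars 1 standard error, and filled points passed an adjusted p of 0.01: 6 genes in PKA-AS with no deletion, 7 in ΔRph1/Gis1 and none in the other panels.

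CLN3, the upstream G1 cyclin, had 31.0, 11.6, 10.3 and 18.8 CPM (normalised counts scaled to library size) in the drug portions of PKA-AS cultures 1, 2, 3 and 2017 with no deletion, against 64.1, 26.0, 28.6 and 46.6 CPM in their DMSO portions. The 2 groups overlapped, yet the drug portion was the lower in 4 of 4 pairs. The LFC was -1.20 (SE 0.59) with an adjusted p of 0.0869, and with the culture pairs as a block it was -1.24 with an adjusted p of 0.00689. Under ΔMsn2/4, CLN3 had 17.3, 20.6, 7.23 and 3.55 CPM in drug cultures 1 to 4, against 75.8, 17.5, 24.5 and 23.0 CPM in DMSO (LFC -1.37, SE 0.62, adjusted p = 0.0989). Without RPH1 and GIS1 its LFC was -1.26 (SE 0.58, adjusted p = 0.0662, and -1.33 with an adjusted p of 0.00332 under the block), and without all 4 factors -1.07 (SE 0.58, adjusted p = 0.173), there with groups that did not overlap. CLN3 thus had an LFC between -1.37 and -1.07 in the 4 PKA-AS strains, and its LFC in the 4 PKA-WT strains lay between -1.30 and 0.15 with no adjusted p below 0.488. The difference in drug effect between PKA-AS and PKA-WT was -0.24 (SE 0.89, adjusted p = 0.877), so no dependence on the analog-sensitive alleles was detectable for CLN3.

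CLN1 and CLN2 encode the G1 cyclins that SBF switches on. CLN1 had 12.5, 20.6, 13.2 and 37.0 CPM in drug cultures 1, 2, 3 and 2017, against 44.1, 61.3, 59.9 and 65.7 CPM in DMSO. CLN2 had 30.0, 12.6, 17.2 and 25.2 CPM with drug, against 89.2, 54.3, 53.1 and 81.8 CPM in DMSO. Every drug culture lay below every DMSO culture for both genes. The fitted level was 2.78-fold lower for CLN1 (LFC -1.48, SE 0.27, adjusted p = 1.17e-05) and 3.27-fold lower for CLN2 (LFC -1.71, SE 0.35, adjusted p = 5.58e-05).

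In the ΔMsn2/4 strain the fall of CLN1 and CLN2 was not seen. CLN1 had 52.0, 46.8, 68.7 and 68.9 CPM in drug cultures 1 to 4, against 41.5, 55.9, 50.3 and 56.7 CPM in DMSO, and the groups overlapped (LFC 0.19, SE 0.27, adjusted p = 0.676). CLN2 had 115, 83.0, 61.5 and 48.3 CPM with drug, against 101, 57.2, 60.9 and 52.2 CPM in DMSO (LFC 0.21, SE 0.34, adjusted p = 0.718). Without all 4 factors, CLN1 averaged 72.0 ± 13.1 CPM with drug and 52.2 ± 9.38 CPM in DMSO (SD, n = 4 each) and CLN2 85.6 ± 22.1 CPM and 62.1 ± 20.3 CPM (LFC 0.46 and 0.47, adjusted p = 0.191 and 0.309). The difference itself was tested: the drug effect under ΔMsn2/4 minus that with no deletion was 1.66 (SE 0.38, adjusted p = 0.00155) for CLN1 and 1.92 (SE 0.48, adjusted p = 0.00424) for CLN2, and 5.05% of all genes were higher by this rule. Removing all 4 factors gave differences of 1.94 (SE 0.38, adjusted p = 0.000119) and 2.18 (SE 0.48, adjusted p = 0.000612), beside 6.90% of all genes. When only the 4 groups compared were fitted, the ΔMsn2/4 differences kept their size (1.66 and 1.92) with adjusted p values of 0.0169 and 0.0133. The CLN2 difference under ΔMsn2/4 also missed the threshold without the drug culture 1 or DMSO culture 4 of that strain, or without DMSO culture 1 or drug culture 2 or 3 of the strain with no deletion (adjusted p up to 0.0192). Both difference tests use the same cultures with no deletion.

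With RPH1 and GIS1 deleted, both genes fell. CLN1 had 21.8, 15.6, 15.4 and 27.2 CPM in drug cultures 1 to 4, against 47.4, 39.6, 51.4 and 51.4 CPM in DMSO (LFC -1.26, SE 0.27, adjusted p = 0.00013). CLN2 had 31.6, 16.2, 15.1 and 18.7 CPM with drug, against 55.7, 50.9, 43.8 and 32.3 CPM in DMSO (LFC -1.17, SE 0.35, adjusted p = 0.0042), a call lost without DMSO culture 1 or 2 or drug culture 2, 3 or 4 (adjusted p up to 0.0206). The groups did not overlap for either gene. The drug effect minus that with no deletion was 0.21 (SE 0.38) for CLN1 and 0.54 (SE 0.49) for CLN2, with adjusted p values of 0.981 and 0.978. No member passed this difference test (0 at an unadjusted p under 0.05 and 0 with DESeq2), and 0.398% of all genes did.

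**Figure D2:**
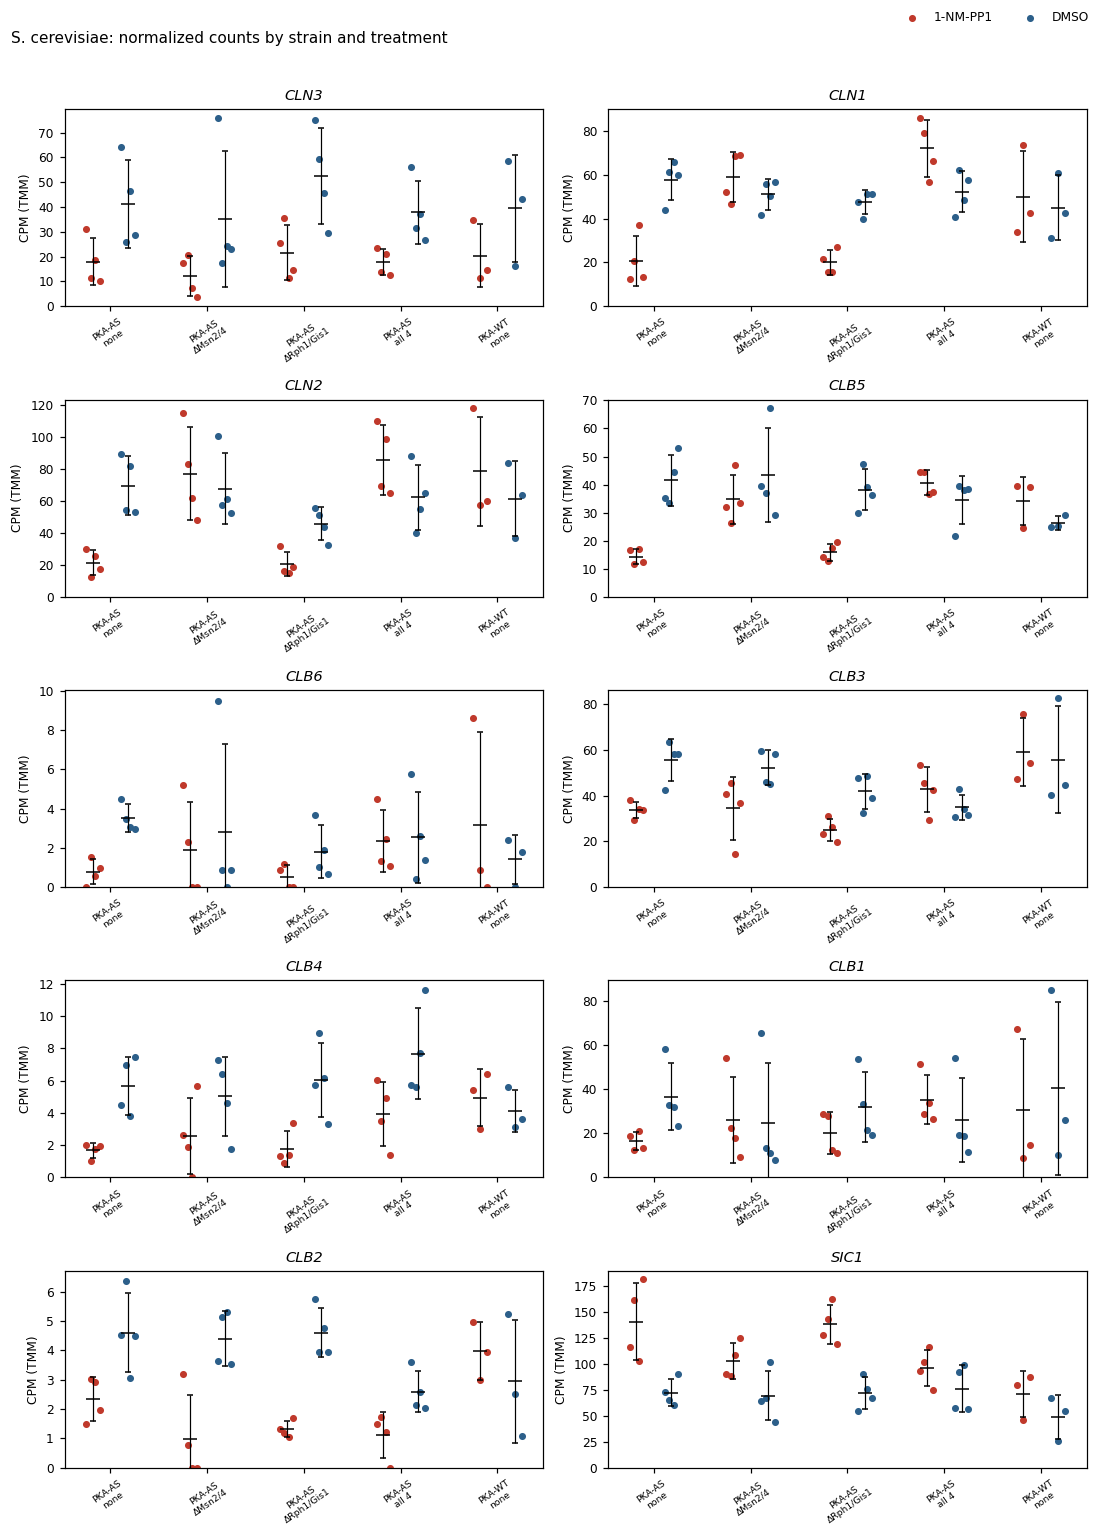
CPM (y axis, TMM-normalized, starting at 0) of the 10 genes in each *S. cerevisiae* culture, with drug portions in red to the left of DMSO portions in blue, for the 4 PKA-AS strains and PKA-WT with no deletion (x axis). Bars give the mean and SD and are clipped at 0. The red CLN1 points of PKA-AS with no deletion lie between 12.5 and 37.0 CPM, below all blue points of that strain, and between 46.8 and 68.9 CPM under ΔMsn2/4, among the blue ones.

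CLB5 and CLB6 encode the S phase cyclins. CLB5 had 16.5, 11.6, 12.3 and 17.0 CPM in drug cultures 1, 2, 3 and 2017 of PKA-AS with no deletion, against 35.1, 33.5, 53.1 and 44.3 CPM in DMSO. All drug values were below all DMSO values, and the level was 2.90-fold lower (LFC -1.54, SE 0.26, adjusted p = 2.39e-06). ΔRph1/Gis1 cells gave 14.2, 12.6, 17.2 and 19.5 CPM with drug, against 29.7, 47.3, 39.0 and 36.3 CPM in DMSO (LFC -1.28, SE 0.26, adjusted p = 4.7e-05). ΔMsn2/4 cells gave 32.1, 26.3, 47.0 and 33.4 CPM with drug, against 39.4, 37.1, 67.5 and 29.2 CPM in DMSO (LFC -0.38, SE 0.26, adjusted p = 0.299). Without all 4 factors CLB5 averaged 40.7 ± 4.47 CPM with drug and 34.4 ± 8.59 CPM in DMSO (SD, n = 4 each; LFC 0.24, SE 0.25, adjusted p = 0.504). The drug effect differed from that with no deletion by 1.77 (SE 0.36, adjusted p = 0.000189) without all 4 factors. Under ΔMsn2/4 the difference was 1.16 (SE 0.36) with an adjusted p of 0.0246, and it passed with the culture pairs as a block (1.25, adjusted p = 0.00573) and without DMSO culture 3 of ΔMsn2/4 (adjusted p = 0.00367).

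CLB6 rested on few counts. With no deletion it had 6 counts over the 4 drug cultures, against 29 counts over the 4 DMSO cultures, and 0, 1.51, 0.98 and 0.587 CPM in drug cultures 1, 2, 3 and 2017, against 4.51, 3.47, 2.98 and 3.06 CPM in DMSO. The groups did not overlap and the ratio of the summed counts, scaled to depth, was 0.224 (95% exact interval 0.0762 to 0.550, counting error only), while the test across genes gave an LFC of -2.10 (SE 1.10, adjusted p = 0.108). In the other 7 *S. cerevisiae* strains CLB6 was at 0 to 21 counts in a culture and no test of it passed. CLB6 and CLB1 end tail to tail with 307 bases between their coding sequences, as do CLB5 and CLB2 with 746 bases. Whether the counting used strand is not stated in the sources used here, so reads of such neighbours might have been shared between them.

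CLB3 and CLB4, the cyclins of early mitosis, also fell with no deletion. CLB3 had 38.0, 29.2, 33.8 and 34.0 CPM in drug cultures 1, 2, 3 and 2017, against 42.6, 63.6, 58.4 and 58.1 CPM in DMSO, a 1.65-fold lower level (LFC -0.72, SE 0.23, adjusted p = 0.00818). CLB4 had 2.00, 1.01, 1.96 and 1.76 CPM with drug, against 4.51, 6.94, 7.45 and 3.82 CPM in DMSO (LFC -1.75, SE 0.51, adjusted p = 0.00319), from 13 counts over the drug and 51 over the DMSO cultures (ratio 0.276, 95% exact interval 0.138 to 0.516). Neither gene had overlapping groups, and both lay close to the threshold. The CLB3 call was lost without DMSO culture 2, 3 or 2017 or drug culture 2, 3 or 2017 (adjusted p up to 0.0301). RLE size factors (adjusted p = 0.0121) and leaving out the 2017 cultures (adjusted p = 0.0317) lost the CLB3 call as well. The CLB4 call was lost without DMSO culture 3 or drug culture 2 (adjusted p up to 0.0160), without the cultures numbered 1 (adjusted p = 0.0120) and with the culture pairs as a block (LFC -1.73, adjusted p = 0.0122).

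Under ΔRph1/Gis1, CLB3 had 23.1, 31.1, 26.3 and 19.5 CPM in drug cultures 1 to 4, against 47.9, 32.5, 48.5 and 38.9 CPM in DMSO (LFC -0.73, SE 0.23, adjusted p = 0.00826), and CLB4 averaged 1.75 ± 1.12 CPM with drug and 6.04 ± 2.32 CPM in DMSO (SD, n = 4 each; LFC -1.98, SE 0.50, adjusted p = 0.000821). The CLB4 groups overlapped, with 3.39 CPM in the drug and 3.30 CPM in the DMSO portion of culture 4, and the call was lost with the first library of culture 2 only (LFC -1.54, adjusted p = 0.0112). CLB3 lost its call without DMSO culture 1, 3 or 4 or drug culture 1, 3 or 4 (adjusted p up to 0.0336) and without the cultures numbered 1 (adjusted p = 0.0645). That call was also lost without the 2017 cultures (adjusted p = 0.0102) and when only the groups compared were fitted (adjusted p = 0.0116). Under ΔMsn2/4 the LFC was -0.51 (SE 0.24) for CLB3 and -0.80 (SE 0.50) for CLB4, and without all 4 factors 0.29 (SE 0.23) and -0.90 (SE 0.43), none of which passed. The drug effect on CLB3 without all 4 factors minus that with no deletion was 1.01 (SE 0.33) with an adjusted p of 0.0202, and 0.98 with an adjusted p of 0.00972 under the block. For CLB4 the same difference was 0.85 (SE 0.66, adjusted p = 0.397).

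CLB1 and CLB2 encode the main mitotic cyclins. CLB1 had 19.0, 12.6, 13.2 and 21.1 CPM in drug cultures 1, 2, 3 and 2017 of PKA-AS with no deletion, against 58.1, 33.0, 23.3 and 32.1 CPM in DMSO. The groups did not overlap, but the test did not pass (LFC -1.15, SE 0.71, adjusted p = 0.174). It passed with the culture pairs as a block (LFC -1.11, adjusted p = 0.00201) and when only the 2 groups were fitted (adjusted p = 0.0072). CLB2 had 1.50, 3.02, 1.96 and 2.93 CPM with drug, against 4.51, 6.36, 4.47 and 3.06 CPM in DMSO, from 18 and 39 counts (ratio 0.501, 95% exact interval 0.269 to 0.896; LFC -0.97, SE 0.57, adjusted p = 0.152). Under ΔRph1/Gis1, CLB2 had 1.33, 1.18, 1.05 and 1.70 CPM with drug, against 5.73, 3.96, 4.76 and 3.96 CPM in DMSO, and passed narrowly (LFC -1.81, SE 0.60, adjusted p = 0.00989), a call lost when any 1 of the 8 cultures was left out (adjusted p 0.0127 to 0.0304). That call was also lost without the cultures numbered 1 (LFC -1.69, adjusted p = 0.0186) and with the first library of culture 2 only (adjusted p = 0.0189). RLE size factors (adjusted p = 0.0102) and leaving out the 2017 cultures (adjusted p = 0.0116) lost it as well.

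Neither gene passed in the strains without Msn2 and Msn4, and CLB1 and CLB2 were not tested against each other. CLB2 was lower with drug in 4 of 4 pairs under ΔMsn2/4 (3.18, 0.761, 0 and 0 CPM in drug cultures 1 to 4, against 3.64, 5.12, 5.29 and 3.54 CPM in DMSO), with an LFC of -1.57 (SE 0.63, adjusted p = 0.0554). Without the cultures numbered 1 that LFC was -3.20 with an adjusted p of 0.00348, and the drug cultures then held at most 0.761 CPM, so this fitted value depends on near-empty cultures. CLB1 had 54.3, 22.5, 18.1 and 9.24 CPM with drug in that strain, against 65.6, 13.2, 11.2 and 7.97 CPM in DMSO (LFC 0.17, SE 0.71, adjusted p = 0.908). Without all 4 factors, the LFC was -1.14 (SE 0.62, adjusted p = 0.17) for CLB2 and 0.46 (SE 0.69, adjusted p = 0.656) for CLB1. The drug effect without all 4 factors minus that with no deletion was 1.61 (SE 0.99, adjusted p = 0.26) for CLB1, and 1.71 with an adjusted p of 0.0019 under the block. For CLB2 it was -0.17 (SE 0.77, adjusted p = 0.926).

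SIC1 moved in the other direction. Its levels were 116, 161, 181 and 103 CPM in drug cultures 1, 2, 3 and 2017 of PKA-AS with no deletion, against 72.7, 65.3, 89.7 and 60.4 CPM in DMSO, and all drug values exceeded all DMSO values. The level was 1.95-fold higher (LFC 0.96, SE 0.28, adjusted p = 0.00403). The call was lost without DMSO culture 1, 2 or 2017 or drug culture 2 or 3 (adjusted p up to 0.0231) and without the cultures numbered 1 (LFC 1.03, adjusted p = 0.0239). Under ΔRph1/Gis1, SIC1 had 128, 143, 162 and 119 CPM with drug, against 54.2, 90.0, 76.1 and 67.2 CPM in DMSO (LFC 0.94, SE 0.28, adjusted p = 0.00515), lost without DMSO culture 1, 3 or 4 or drug culture 2 or 3 (adjusted p up to 0.0246) and without the cultures numbered 1 (adjusted p = 0.0479).

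Under ΔMsn2/4 the SIC1 level was 89.8, 87.9, 108 and 125 CPM in drug cultures 1 to 4, against 64.1, 67.5, 101 and 44.3 CPM in DMSO, higher in 4 of 4 pairs. The LFC was 0.56 (SE 0.29, adjusted p = 0.152), and with the culture pairs as a block 0.62 with an adjusted p of 0.00999. Without all 4 factors SIC1 averaged 96.3 ± 17.2 CPM with drug and 76.0 ± 22.4 CPM in DMSO (SD, n = 4 each; LFC 0.34, SE 0.28, adjusted p = 0.393). Unlike CLN1 and CLN2, no deletion gave a drug effect on SIC1 that passed the test of the difference: -0.40 (SE 0.40, adjusted p = 0.62) under ΔMsn2/4, -0.02 (SE 0.40, adjusted p = 1) under ΔRph1/Gis1 and -0.62 (SE 0.40, adjusted p = 0.285) without all 4.

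Over the 10 genes, 7 passed in PKA-AS ΔRph1/Gis1 (6 lower and 1 higher, median LFC -1.26), where 20.5% of all genes fell and 19.8% rose. Leaving out any 1 of its 8 cultures left between 3 and 5, and leaving out the cultures numbered 1 left 4. With no deletion, 3 to 6 of the 6 calls remained by count when 1 culture was left out. None passed under ΔMsn2/4 (3 at an unadjusted p under 0.05, 0 with DESeq2, median LFC -0.21), where 12.0% of all genes fell and 8.69% rose. None passed without all 4 factors (1 at an unadjusted p under 0.05, 0 with DESeq2, median LFC 0.26), where 11.8% fell and 6.90% rose. Leaving out the shallow drug culture 3 of ΔMsn2/4 left the count there at 0 and the drug effect differences at 1.60 (adjusted p = 0.00341) for CLN1 and 1.99 (adjusted p = 0.00407) for CLN2.

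**Figure D3:**
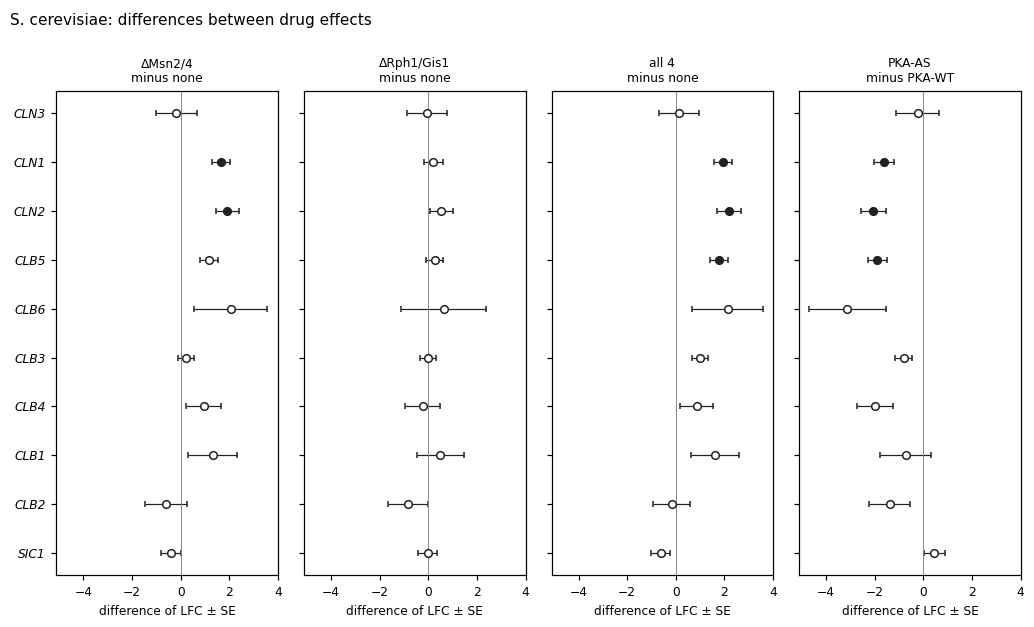
Difference between drug effects (x axis, log2 units) for each of the 10 genes (rows) in *S. cerevisiae*, for each deletion minus none within PKA-AS and for PKA-AS minus PKA-WT (panels). Points are fitted values, bars 1 standard error, and filled points passed an adjusted p of 0.01: CLN1 and CLN2 under ΔMsn2/4, these with CLB5 without all 4 factors and for PKA-AS minus PKA-WT, and none under ΔRph1/Gis1.

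PKA-WT cells show what the drug does without its target. No member passed in any of the 4 PKA-WT strains (0 at an unadjusted p under 0.05 and 0 with DESeq2 in each), and the lowest adjusted p was 0.364. Of all genes, 0.138% passed in either direction with no deletion, 0.242% under ΔMsn2/4, 0.138% under ΔRph1/Gis1 and 0.675% without all 4 factors. With no deletion, CLN1 had 33.9, 73.4 and 42.4 CPM in drug cultures 1 to 3, against 31.3, 60.9 and 42.7 CPM in DMSO. CLB5 had 39.4, 24.3 and 39.0 CPM with drug, against 24.9, 25.1 and 29.3 CPM in DMSO. SIC1 had 79.6, 46.1 and 86.9 CPM with drug, against 67.1, 25.7 and 54.6 CPM in DMSO, higher in 3 of 3 pairs (LFC 0.52, SE 0.33, adjusted p = 0.653). Across the 4 PKA-WT strains the LFC lay between -0.23 and 0.41 for CLN1, -0.06 and 0.64 for CLN2, -0.29 and 0.37 for CLB5 and -0.07 and 0.52 for SIC1.

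The effect of the drug in PKA-AS minus that in PKA-WT, both with no deletion, was -1.63 (SE 0.41, adjusted p = 0.00141) for CLN1, -2.06 (SE 0.52, adjusted p = 0.00156) for CLN2 and -1.90 (SE 0.39, adjusted p = 0.000112) for CLB5. These 3 of the 10 genes passed, all lower, as did 13.6% of all genes. CLN1 missed the threshold without PKA-WT drug culture 2 (adjusted p = 0.0183) and when only the groups compared were fitted (-1.59, adjusted p = 0.0379), and CLN2 without PKA-WT drug culture 1 (adjusted p = 0.0152). The difference was -1.99 (SE 0.73, adjusted p = 0.0309) for CLB4, -0.81 (SE 0.35, adjusted p = 0.0711) for CLB3 and 0.44 (SE 0.43, adjusted p = 0.469) for SIC1. The rise of SIC1 in PKA-AS cells was therefore not shown to differ from its values in PKA-WT cells.

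In DMSO no member passed between strains. In PKA-AS, 0 of the 10 passed for any deletion against none (0, 0 and 1 at an unadjusted p under 0.05 for ΔMsn2/4, ΔRph1/Gis1 and all 4, and 0 with DESeq2), beside 0.0692%, 1.25% and 0.917% of all genes. The LFC of the 3 deletions lay between -0.29 and -0.14 for CLN1, -0.60 and -0.04 for CLN2, and -0.06 and 0.08 for SIC1. It reached -0.99 for CLB6, -0.84 for CLB2 and -0.58 for CLB1. The lowest adjusted p was 0.202, for CLB3 without all 4 factors (34.8 ± 5.63 CPM with the deletions and 55.7 ± 9.08 CPM with none, SD, n = 4 each; LFC -0.67). PKA-AS against PKA-WT in DMSO gave 0 of 10 (1 at an unadjusted p under 0.05, 0 with DESeq2), and 0% of all genes passed. CLB5 averaged 41.5 ± 9.07 CPM in PKA-AS and 26.4 ± 2.49 CPM in PKA-WT (SD, n = 4 and 3; LFC 0.65, SE 0.27, adjusted p = 1). CLB6, from few counts, averaged 3.50 ± 0.704 CPM in PKA-AS and 1.41 ± 1.25 CPM in PKA-WT (LFC 1.16, SE 1.06, adjusted p = 1).

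Over the 16 groups, the mean level of CLN2 ran from 20.4 CPM in PKA-AS ΔRph1/Gis1 with drug to 93.9 CPM in PKA-WT without all 4 factors with drug, a span of 4.61-fold. CLN1 spanned 3.60-fold, from 20.0 CPM in PKA-AS ΔRph1/Gis1 with drug to 72.0 CPM in PKA-AS without all 4 factors with drug. CLB5 spanned 3.02-fold, from 14.3 CPM in PKA-AS with no deletion and drug to 43.3 CPM in PKA-AS ΔMsn2/4 in DMSO. SIC1 spanned 2.86-fold, from 49.2 CPM in PKA-WT with no deletion in DMSO to 140 CPM in PKA-AS with no deletion and drug. CLN3 spanned 7.34-fold, from 12.2 CPM in PKA-AS ΔMsn2/4 with drug to 89.3 CPM in PKA-WT ΔRph1/Gis1 in DMSO. The other 5 spanned between 2.42-fold (CLB3) and 6.79-fold (CLB6). Groups next to each other in this order overlapped in all 15 neighbouring pairs for 9 of the genes and in 14 for CLN2, so that the order within the middle of the range is not resolved.

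Across the 16 group means of log2 CPM, the levels of CLB5 and CLN1 had a Pearson r of 0.897, those of CLN2 and CLN1 0.846 and those of CLN2 and CLB5 0.698. SIC1 ran against CLB3 (r = -0.783), CLB4 (-0.616), CLN1 (-0.535) and CLN2 (-0.529), and its r with the other members lay between -0.420 (CLN3) and -0.209 (CLB1). CLN3 had an r of 0.0246 with CLN1 and 0.138 with CLN2. These are descriptions over 16 points that share strains, cultures and scaling. The genes most like each member, among 4942 with at least 10 counts per culture on average, were FAA3 (0.964), RNH202 (0.946) and SFG1 (0.936) for CLN2, ERG8 (0.925), ECM32 (0.921) and YCG1 (0.912) for CLB5, CRD1 (0.954), IBA57 (0.946) and NPL4 (0.946) for SIC1, ROX1 (0.904), YHL026C (0.892) and SRP1 (0.889) for CLN3, and MDM38 (0.891), WTM2 (0.853) and SGF29 (0.851) for CLB2.

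Of 18 other SBF and MBF target genes, 9 fell and none rose with no deletion (median LFC -1.94, against 0.00 over all genes, of which 21.2% fell). Under ΔRph1/Gis1 7 fell and 1 rose (median -0.87), beside 20.5% and 19.8% of all genes. Under ΔMsn2/4 2 fell and 1 rose (median 0.12), beside 12.0% and 8.69% of all genes, so these counts are near the shares of all genes. Without all 4 factors none fell and 4 rose (median 0.63), beside 11.8% and 6.90% of all genes. The drug effect was higher than with no deletion for 7 of the 18 under ΔMsn2/4 (median difference 1.86, beside 5.05% of all genes) and for 11 without all 4 factors (median difference 2.15, beside 6.90%). GIC2, a Cdc42 effector of bud formation, had an LFC of -5.73 (SE 0.62) with no deletion and -1.62 under ΔMsn2/4, a difference of 4.11 (adjusted p = 0.000189). RAD27, a nuclease of DNA replication, had -2.51 (SE 0.37) and -0.19, a difference of 2.32 (adjusted p = 0.000815). RNR1, the large subunit of ribonucleotide reductase, had -3.25 (SE 0.98) and 0.13, a difference of 3.38 (SE 1.30, adjusted p = 0.0787). GIC2, RAD27 and RNR1, and XBP1 below, were named for their large LFC with no deletion, which the difference subtracts. The size of such a difference is favoured by that choice.

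Of 10 regulators of the G1/S switch, 1 rose and 1 fell with no deletion (median LFC -0.02), beside 20.7% and 21.2% of all genes. The one that rose was XBP1, a stress-induced repressor, by an LFC of 5.52 (SE 0.55) with no deletion, and by 3.83 (SE 0.61, adjusted p = 1.99e-06) under ΔMsn2/4. The drug effect on XBP1 under ΔMsn2/4 minus that with no deletion was -1.69 (SE 0.97, adjusted p = 0.309). Without all 4 factors it differed from that with no deletion by -3.73 (adjusted p = 0.000177). NRM1, a corepressor of MBF, fell by 2.02 on the log2 scale (SE 0.35). SWI4, SWI6, MBP1 and WHI5 were among the 8 that did not pass.

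The counts of the next lists stand beside 21.2% of all genes that fell and 20.7% that rose with no deletion, and those near these shares say nothing particular about a list. Of 9 genes of the CDK core and its other inhibitors, 3 fell and 1 rose, the CDK-activating kinase CAK1. Those that fell were SWE1, the kinase that holds back Clb-Cdc28 (LFC -2.37, SE 0.44), FAR1, the inhibitor used in the pheromone response (LFC -1.42, SE 0.35), and CKS1, a CDK subunit (LFC -1.39, SE 0.45, adjusted p = 0.00926). Of 15 G2/M genes 3 fell and none rose (median LFC -0.40), BUD4, CDC5 and FKH2 by 0.80 to 0.97 on the log2 scale. Of 13 genes of mitotic exit and anaphase, 2 fell (CDC14, -1.98, and NET1, -1.63) and CDC15 rose (1.55). None of the 6 MCM genes passed (median LFC -0.63). Of 11 genes for the Pho85 kinase and its cyclins, 3 rose and none fell: PCL7 (2.03), PHO85 (1.55) and PCL6 (1.16).

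In *K. lactis* PKA-AS cells, Kl_CLN1/CLN2 passed, lower with the drug, in all 4 strains. Kl_CLB5/CLB6 was lower with the drug in all 4 and passed in all but ΔMsn2, where it narrowly missed the threshold (LFC -2.04, adjusted p = 0.0117). Kl_CLN3 did not pass and had an LFC above 0 in each strain. With no deletion, 2 of the 6 genes fell and none rose, against 24.1% and 21.1% of 5271 genes tested, and the median LFC was -0.26. Kl_CLN1/CLN2 had 15.0, 25.8, 10.6 and 27.0 CPM in drug cultures 1, 2, 3 and 2017, against 69.7, 71.2, 32.4 and 91.2 CPM in DMSO, with no overlap (LFC -1.73, SE 0.43, adjusted p = 0.000937). Kl_CLB5/CLB6 had 5.00, 2.91, 1.41 and 3.95 CPM with drug, against 28.4, 21.5, 25.6 and 20.5 CPM in DMSO (LFC -2.80, SE 0.66, adjusted p = 0.000605), from 36 counts over the drug and 217 over the DMSO cultures (ratio 0.145, 95% exact interval 0.0989 to 0.207). The S phase cyclin was lowered 6.94-fold and the G1 cyclin 3.31-fold. Without the cultures numbered 1, Kl_CLN1/CLN2 had an LFC of -1.55 with an adjusted p of 0.0232, so 1 of the 2 calls was left.

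**Figure D4:**
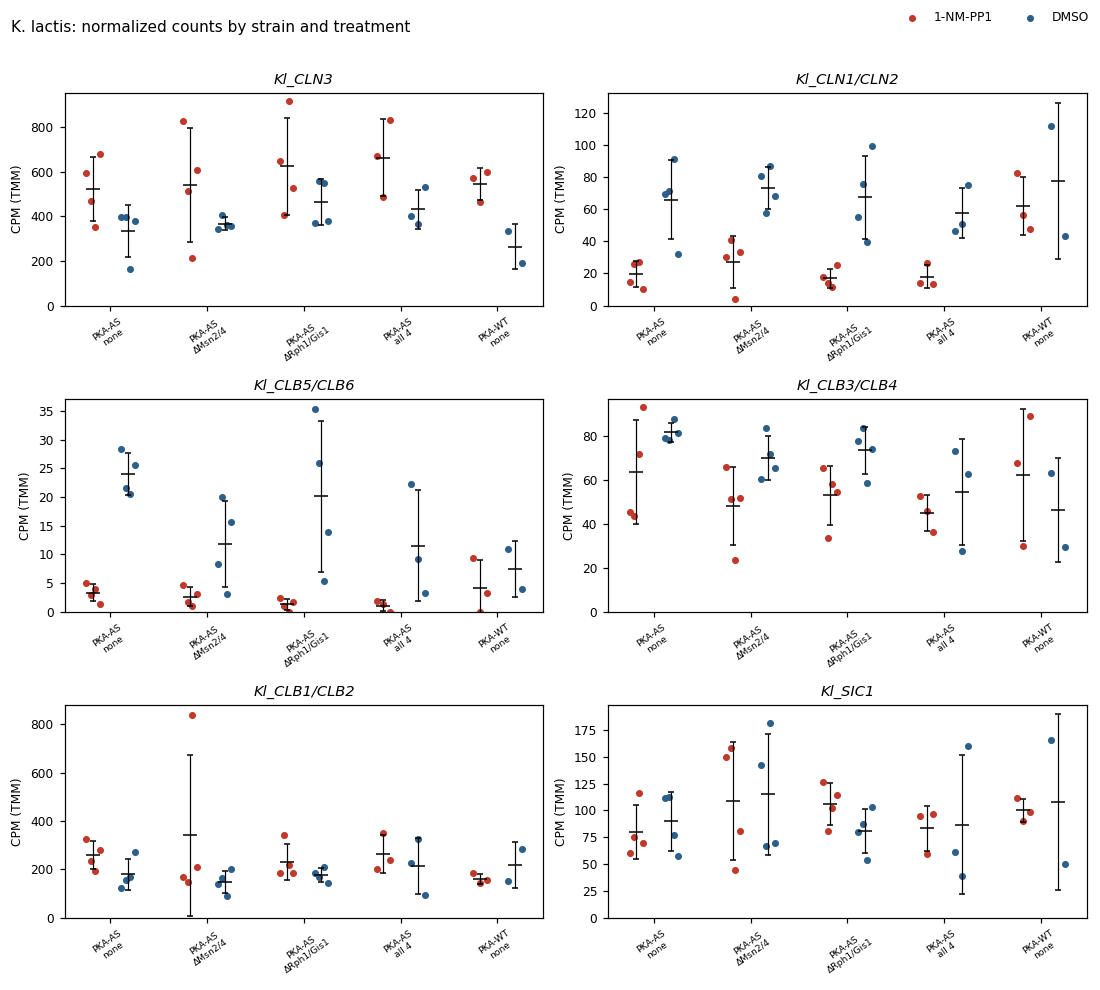
CPM (y axis, TMM-normalized, starting at 0) of the 6 orthologs in each *K. lactis* culture, with drug portions in red to the left of DMSO portions in blue, for the 4 PKA-AS strains and PKA-WT (x axis, where ΔMsn2/4, ΔRph1/Gis1 and all 4 mean deletion of the shared orthologs). Bars give the mean and SD and are clipped at 0. The red Kl_CLB5/CLB6 points of PKA-AS lie between 0 and 5.00 CPM, below the blue points of their strain except under ΔMsn2.

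Under ΔMsn2 both *K. lactis* genes were again lower with drug. Kl_CLN1/CLN2 had 30.2, 40.9, 3.79 and 33.3 CPM in drug cultures 1 to 4, against 81.0, 57.7, 86.8 and 68.4 CPM in DMSO (LFC -1.39, SE 0.42, adjusted p = 0.00554). Kl_CLB5/CLB6 had 4.62, 1.64, 0.949 and 3.16 CPM with drug, against 8.34, 20.0, 3.10 and 15.6 CPM in DMSO (LFC -2.04, SE 0.68, adjusted p = 0.0117), and passed with the culture pairs as a block (-2.09, adjusted p = 0.000809), with DESeq2 (-2.07, adjusted p = 0.00592), without the cultures numbered 1 (adjusted p = 0.00968) and without DMSO culture 3 (adjusted p = 0.0045). The drug effect minus that with no deletion was 0.33 (SE 0.58) for Kl_CLN1/CLN2 and 0.76 (SE 0.95) for Kl_CLB5/CLB6, both with an adjusted p of 1. Drug culture 3 stood apart, with the lowest Kl_CLN1/CLN2 and Kl_CLN3 levels and the highest Kl_CLB1/CLB2 level of its group. Without it Kl_CLN1/CLN2 had an LFC of -1.07 with an adjusted p of 0.0178, and the call was also lost without drug culture 1, DMSO culture 1 or DMSO culture 3, or without the cultures numbered 1 (adjusted p = 0.0405). Thus 1 of 6 passed, lower, under ΔMsn2 and 0 without drug culture 3 (22.7% of all genes fell and 19.7% rose).

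Under ΔRph1, Kl_CLN1/CLN2 had 17.7, 14.3, 11.3 and 25.1 CPM in drug cultures 1 to 4, against 55.0, 75.9, 39.7 and 99.6 CPM in DMSO (LFC -1.96, SE 0.43, adjusted p = 0.000289). Kl_CLB5/CLB6 had 2.40, 1.02, 0 and 1.69 CPM with drug, against 35.3, 25.9, 5.37 and 13.9 CPM in DMSO, the largest fitted fall among the members in any strain (LFC -3.74, SE 0.73, adjusted p = 6.51e-05; 16 against 210 counts, ratio 0.0737, 95% exact interval 0.0413 to 0.122). These 2 of 6 fell and none rose, beside 22.8% and 18.7% of all genes. In the double deletion the LFC was -1.67 (SE 0.49, adjusted p = 0.00663) for Kl_CLN1/CLN2 and -3.38 (SE 0.89, adjusted p = 0.00258) for Kl_CLB5/CLB6, again 2 of 6 lower and none higher (19.6% and 12.5% of all genes). Kl_CLN1/CLN2 was lost without DMSO culture 2 or 3 or drug culture 1 or 3 (adjusted p up to 0.0387), Kl_CLB5/CLB6 without DMSO culture 1 or drug culture 2 or 3 (adjusted p up to 0.0484, with the LFC at -2.45 without DMSO culture 1, and at -4.10 without drug culture 1), and both without the cultures numbered 1 (adjusted p = 0.0653 and 0.0452).

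No deletion changed the drug effect on a *K. lactis* member past the threshold (0 of 6 in each of the 3 tests, 0 at an unadjusted p under 0.05, 0 with DESeq2, beside 0.0379%, 0.360% and 1.04% of all genes for ΔMsn2, ΔRph1 and both). Whether the part of Msn2/4 in the CLN1 and CLN2 response differs between the species was not tested in a common fit. In DMSO, 0 of 6 passed for any deletion (0 at an unadjusted p under 0.05, 0 with DESeq2, beside 0%, 1.82% and 1.57% of all genes).

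PKA-WT *K. lactis* gave 0 of 6 (1 at an unadjusted p under 0.05, 0 with DESeq2), although 6.15% of all genes passed. Kl_CLN1/CLN2 had 82.4, 56.5 and 47.6 CPM in drug cultures 1 to 3, against 112 and 43.3 CPM in DMSO cultures 1 and 2 (LFC -0.34, SE 0.52, adjusted p = 0.713). Kl_CLB5/CLB6 had 9.38, 0 and 3.23 CPM with drug, against 10.9 and 3.94 CPM in DMSO (LFC -0.66, SE 0.83, adjusted p = 0.646). The drug effect in PKA-AS minus that in PKA-WT was -1.39 (SE 0.68, adjusted p = 0.153) and -2.13 (SE 1.07, adjusted p = 0.164), so 0 of 6 passed (0 at an unadjusted p under 0.05, 0 with DESeq2) beside 11.4% of all genes, and with 3 and 2 PKA-WT cultures the dependence on the analog-sensitive alleles was not shown for the *K. lactis* cyclins. PKA-AS against PKA-WT in DMSO gave 0 of 6 (0 at an unadjusted p under 0.05, 0 with DESeq2) and 0% of all genes. Kl_CLB5/CLB6 averaged 24.0 ± 3.64 CPM in PKA-AS and 7.40 ± 4.89 CPM in PKA-WT in DMSO (SD, n = 4 and 2; LFC 1.56, SE 0.78, adjusted p = 0.869). Kl_CLB3/CLB4 averaged 81.7 ± 4.20 CPM in PKA-AS and 46.3 ± 23.7 CPM in PKA-WT (LFC 0.79, SE 0.40, adjusted p = 0.869).

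**Figure D5:**
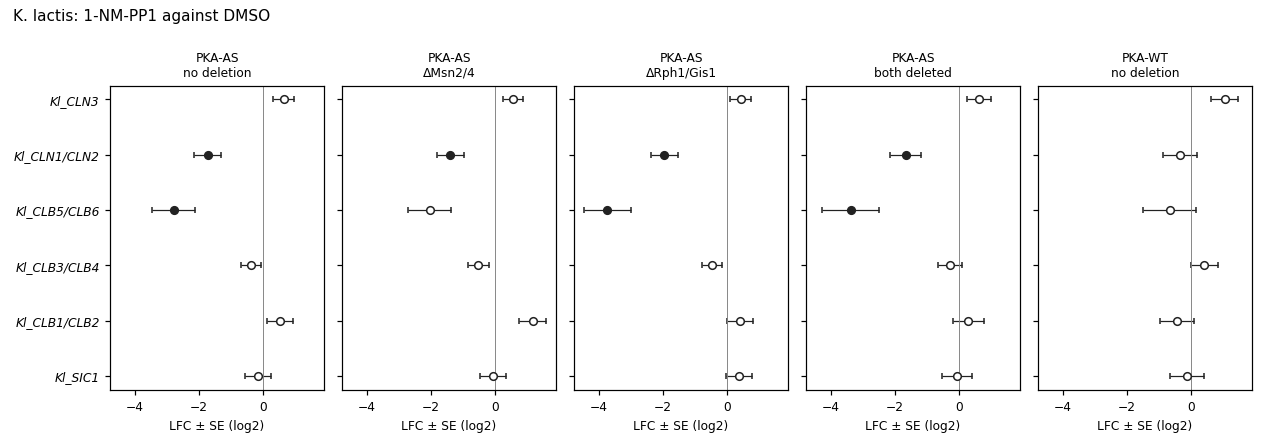
Log2 fold change of drug over DMSO (x axis, log2 units) for each of the 6 *K. lactis* genes (rows) in the 4 PKA-AS strains and PKA-WT (panels, where ΔMsn2/4 and ΔRph1/Gis1 mean deletion of the shared orthologs). Points are fitted values, bars 1 standard error, and filled points passed an adjusted p of 0.01: Kl_CLN1/CLN2 in the 4 PKA-AS strains and Kl_CLB5/CLB6 in all of these but ΔMsn2.

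The remaining *K. lactis* members did not pass in any strain by the edgeR test over all cultures. Kl_CLN3 had 594, 466, 678 and 352 CPM in drug cultures 1, 2, 3 and 2017 of PKA-AS with no deletion, against 398, 394, 380 and 163 CPM in DMSO, higher in 4 of 4 pairs (LFC 0.65, SE 0.32, adjusted p = 0.0893), and its LFC in PKA-WT was 1.05 (SE 0.43, adjusted p = 0.101). Kl_CLB1/CLB2 had 325, 233, 282 and 193 CPM with drug, against 125, 156, 271 and 169 CPM in DMSO, higher in 4 of 4 pairs (LFC 0.52, SE 0.41, adjusted p = 0.293). Both LFCs were above 0, where those of CLN3, CLB1 and CLB2 in *S. cerevisiae* were below 0, and neither set passed the test. Under ΔMsn2, Kl_CLB1/CLB2 had an LFC of 1.18 (SE 0.42, adjusted p = 0.0174), and of 0.25 (adjusted p = 0.573) without drug culture 3. It passed with DESeq2 (1.32, adjusted p = 0.0063) and without drug culture 1 or 2 (adjusted p down to 0.00514), fits that hold culture 3, and had 0.74 (adjusted p = 0.173) with the culture pairs as a block. Kl_CLB3/CLB4 had an LFC of -0.37 (SE 0.32) with no deletion and Kl_SIC1 of -0.16 (SE 0.41, adjusted p = 0.765), with 60.0, 74.9, 69.3 and 116 CPM with drug, against 112, 113, 57.2 and 77.3 CPM in DMSO. Kl_SIC1 had the narrowest span of group means among the members, 1.43-fold over the 10 groups, beside 22.3-fold for Kl_CLB5/CLB6 and 4.55-fold for Kl_CLN1/CLN2. Its single cultures varied more, from 38.5 to 182 CPM.

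Of 15 orthologs of SBF and MBF targets tested with no deletion, 3 fell, beside 24.1% of all genes, and 1 rose (median LFC -0.72, against -0.04 over all genes). Under ΔMsn2 5 fell and 1 rose (median -0.75, 22.7% of all genes fell), under ΔRph1 8 fell and none rose (median -1.60, 22.8%), and in the double deletion 6 fell and none rose (median -1.26, 19.6%). The one that rose with no deletion and under ΔMsn2 was the ortholog of CDC9, the DNA ligase of replication. The ortholog that RNR1 shares with RNR3 had an LFC of -1.88 (SE 0.36, adjusted p = 4.2e-05) and the RAD27 ortholog of -1.32 (SE 0.22, adjusted p = 6.04e-06). The GIC2 ortholog (LFC -1.20, SE 0.54, adjusted p = 0.0578) and the NRM1 ortholog (LFC -0.91, SE 0.52, adjusted p = 0.137) did not pass. The XBP1 ortholog rose by an LFC of 2.00 (SE 0.35) and the SWE1 ortholog fell by 1.43 on the log2 scale (SE 0.33). The FAR1 ortholog rose by an LFC of 1.37 (SE 0.21), whereas FAR1 fell in *S. cerevisiae*.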

How the data were processed

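RNA of *S. cerevisiae* and *K. lactis* cultures was made into QuantSeq 3′ libraries and sequenced in a single run. Per the study's methods, the authors trimmed and aligned reads in the Bluebee pipeline and recounted them with HTSeq in intersection-nonempty mode, on R64 with added 3′ UTRs or on ASM241v1 with genes extended by 400 bases. The aligner, its version and the strand setting are not given in the sources used here. The deposited values used are raw counts per gene and library from the authors. Their tables of mean rlog values served for gene names only, and their DESeq2 fold changes and p-values were not used. The combined count tables repeated the single files in 59 of 59 and 35 of 35 columns, and 0 columns of other samples were found. HTSeq summary lines stayed out of library sizes (median share for *S. cerevisiae* and *K. lactis*: no feature 5.60% and 10.9%, ambiguous 3.01% and 0.0682%, not unique 6.98% and 1.27%).

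Groups came from the sample labels. Repeat libraries of PKA-AS ΔRph1/Gis1 culture 2 were summed and a library labelled as dropped was left out. Testing took genes that reached 2 counts in 3 or more cultures and was done with edgeR 4.0.16 (quasi-likelihood, TMM) in R 4.3.3, a single factor of group per species and Benjamini-Hochberg adjustment over all genes, and a call is an adjusted p under 0.01. The SE is the absolute LFC over the square root of F. Levels are TMM-normalised CPM. R64 sequences and positions came from RefSeq. Alternatives were DESeq2 1.42.0, RLE size factors, no filter, the culture pairs as a block, no 2017 cultures, the first repeat library only, only the groups compared, each culture left out, and, chosen after seeing the data, no cultures numbered 1. Figures used matplotlib 3.10.9.

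Each culture was divided into both treatments, so its number pairs them by design. Paired libraries deviated together with a median r of 0.508 over 28 pairs in *S. cerevisiae* (24 above 0.1) and 0.472 over 17 pairs in *K. lactis* (13 above 0.1). The members and lists were chosen with earlier results of these data known. Named besides the members were, for each pathway list, the 3 called genes with the largest LFC with no deletion and at least 10 counts on average, and 3 genes of the most similar pattern for 5 members. A list of early G1 genes is not reported here. CAK1 and CDC9 were named after their values were seen. Intervals from counts cover counting error only, and p-values measure the spread between these cultures.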

Additional observations from a re-analysis of the deposited data

Results flagged for a closer look

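Among 116 groups of 4 cultures, 6 held a culture far from the other 3, where chance gives about 1 in 20. In the DMSO portion of *S. cerevisiae* PKA-AS ΔMsn2/4, culture 1 had 75.8 CPM of CLN3 (others 17.5 to 24.5), 9.48 CPM of CLB6 (others 0 to 0.885) and 65.6 CPM of CLB1 (others 7.97 to 13.2). Culture 1 of PKA-AS without all 4 factors had 21.5 CPM of CLB5 in DMSO (others 38.1 to 39.6). In *K. lactis*, Kl_CLN3 was at 163 CPM in the DMSO portion of PKA-AS culture 2017 (others 380 to 398), and Kl_CLB1/CLB2 at 838 CPM in the drug portion of ΔMsn2 culture 3 (others 148 to 210).

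The drug effect differed between strains by a test of the difference for CLN1 (1.66) and CLN2 (1.92) under ΔMsn2/4, for CLN1 (1.94), CLN2 (2.18) and CLB5 (1.77) without all 4 factors, each minus no deletion, and for CLN1 (-1.63), CLN2 (-2.06) and CLB5 (-1.90) in PKA-AS minus PKA-WT. The causes were not tested.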

How the results depend on the processing

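Of 29 comparisons, 21 kept their count of members past the threshold within 1.5 times under every alternative. Most of these 21 had no member past the threshold to begin with. Of the comparisons with calls, only PKA-AS minus PKA-WT in *S. cerevisiae* and the drug effect under *K. lactis* ΔRph1 stayed within that margin. The first of these still lost single calls in some runs. Of 677 values for single genes, 81 lost and 20 gained a call and 0 changed direction. These 677 cover only genes called in the main run or in an alternative of that comparison, where a change of direction is unlikely. With the culture pairs as a block, the count was 1 in place of 0 for PKA-AS ΔMsn2/4, 5 in place of 3 for the difference without all 4 factors and 2 in place of 1 for *K. lactis* ΔMsn2, where DESeq2 gave 3. With only the groups compared, it was 0 in place of 2 for the ΔMsn2/4 difference, 0 in place of 1 for *K. lactis* ΔMsn2 and 0 in place of 2 for the *K. lactis* double deletion. Without the 2017 cultures it was 1 for the ΔMsn2/4 difference and 1 for the *K. lactis* double deletion. Without the cultures numbered 1 it was 1 for ΔMsn2/4, 4 in place of 7 for ΔRph1/Gis1, 1 in place of 2 for *K. lactis* with no deletion and 0 for its double deletion. Leaving out 1 culture at a time gave 3 to 6 with no deletion, 0 to 1 for ΔMsn2/4, 3 to 5 for ΔRph1/Gis1, 1 to 3 for the ΔMsn2/4 difference, 0 to 2 for *K. lactis* ΔMsn2 and 0 to 1 for its double deletion. CLN1, CLN2 and CLB5 with no deletion, CLN1 and CLB5 under ΔRph1/Gis1, CLN1, CLN2 and CLB5 in the difference without all 4 factors, CLB5 in PKA-AS minus PKA-WT, Kl_CLB5/CLB6 with no deletion and both of Kl_CLN1/CLN2 and Kl_CLB5/CLB6 under ΔRph1 kept their call in every alternative run. RLE size factors moved the median LFC of the members by -0.06 to 0.12. Low counts limit CLB2, CLB4 and CLB6. The causes were not tested.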
